A study of Mus musculus with 4 samples.

Results

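The cytosolic translation initiation and elongation factors were read as 1 group of genes, taken from the deposited table by symbol. Every row whose symbol began with Eif1 to Eif6 or with Eef1 or Eef2 was a member, apart from Eif2s3y, Eef1e1, pseudogene symbols and antisense symbols. The rule found 65 members among 18854 genes. They were split by complex into eIF1 (5 genes), eIF2 (5), the kinases of eIF2 (4), eIF2B (5), eIF3 (14), eIF4 (16), eIF5 with eIF6 (5) and elongation (11).

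Initiation builds a ribosome on an mRNA. eIF2, bound to GTP, carries the initiator tRNA to the small ribosomal subunit, on which eIF1, eIF1A, eIF3 and eIF5 gather, while eIF4 proteins bind the cap at the 5′ end of the mRNA and unwind it. After a start codon is found eIF2 leaves with GDP, and eIF2B puts GTP back on it. Stress kinases phosphorylate eIF2, which then blocks eIF2B and lowers initiation in general, a response known in neurons from learning and from neurodegeneration. Elongation is carried by eEF1A, which brings each aminoacyl-tRNA to the ribosome, and by eEF2, which moves the ribosome along the mRNA.

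Total RNA of wild-type mouse cortical neurons in culture was depleted of ribosomal RNA and sequenced, so the values describe transcripts and not the proteins or their phosphorylation. The neurons had been 15 days in vitro. One group (2 libraries) received the p53 activator Nutlin-3 for 2 days, a compound that keeps the ubiquitin ligase Mdm2 off p53, and the other (2 libraries) is named for its solvent DMSO in the titles, while its treatment label says that nothing was given. No dose was stated. Whether replicates were separate cultures is not said, so the spread behind each p-value is that between these libraries and may be technical.

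The libraries held 14584247 and 14968028 reads (DMSO) and 19065197 and 17716272 reads (activator). The unit is CPM, the reads of a gene relative to all reads of its library, in which a gene's value depends on what else was sequenced. Nuclear protein-coding genes took 73.4% and 75.8% of reads in the DMSO libraries and 83.0% and 82.6% with the activator, and these genes had a median log2 fold change of 0.09 in CPM. Scaled to their own total, that median was -0.04, a shift of -0.14. Neuronal markers were abundant in every library, and of the 5 tested 3 were higher and 1 (Rbfox3) lower with the activator. The 7 astrocyte markers were present as well, with a sum of 2231 and 2208 CPM in DMSO and 2576 and 2572 CPM with the activator, of which 1 was called higher. Glutamatergic (3 of 5) and GABAergic markers (3 of 3) were called higher in part, as was 1 of 3 endothelial and mural markers, while 0 of 6 markers of the oligodendrocyte lineage, 0 of 2 of fibroblasts, 0 of 4 of dividing progenitors and 0 of 2 of microglia were called. On the own total of protein-coding genes 3 neuronal markers were called higher and 2 lower, 2 glutamatergic ones higher and 1 lower, and 2 of 3 GABAergic ones higher. There all 4 progenitor markers and 1 of 3 microglial markers were called lower, and no astrocyte, oligodendrocyte lineage, endothelial or fibroblast marker was called. Microglial markers summed to between 2.88 and 4.53 CPM, with Cx3cr1, Tmem119 and C1qa not listed. Bulk RNA cannot tell more cells of a type from more RNA per cell, and the part of these other cells in the results below was not tested.

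In CPM most translation factor genes were slightly higher with the p53 activator (52 of 64, of which 14 pass below 0 with protein-coding genes put on their own total), and 1, Eif4ebp3, changed by 1.5-fold or more in its mean. Of the 64 members tested 26 rose, 3 fell (Eif2d, Eif2ak4 and Eif4ebp3) and 35 did not pass the test, which was limma on log2(CPM + 1) with Benjamini-Hochberg adjustment over all 16654 genes tested, two-sided, called at an adjusted p under 0.05. Of all genes tested 16.9% were called higher and 16.3% lower, and of the protein-coding ones 21.2% and 7.19%. The members' median log2 fold change was 0.20, against 0.03 over all genes and 0.09 over protein-coding genes. The rises called were between 1.15-fold and 1.36-fold in mean CPM. Both activator libraries lay above both DMSO libraries for 43 members and below them for 5, and the groups overlapped for the other 16. For protein-coding genes the shares so separated were 45.2% higher and 19.8% lower, and for all genes 36.6% and 30.9%.

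The members' summed level was 6035 and 6065 CPM in the DMSO libraries and 7092 and 6985 CPM with the activator. As a share of the reads of protein-coding genes it was 0.822% and 0.801%, then 0.854% and 0.846%. Both measures were higher in both activator libraries, the second by far less than the first. With protein-coding genes put on their own total, 4 of 63 members were called higher (Eif1, Eif1ax, Eif3b and Eef1a2) and 5 lower (Eif2d, Eif2ak4, Eif4ebp3, Eef1b2 and Eif5b), beside 4.37% and 13.1% of protein-coding genes, and the members' median was 0.05. The 3 falls called in CPM were therefore called under both scalings, and 22 of the 26 rises in CPM were not. The own total lowers every protein-coding gene by nearly the same amount, so by design it enlarges falls and shrinks rises. After cyclic loess alignment of protein-coding genes 4 members were called higher (Eif1, Eif1a, Eif2s3x and Eif3b) and 3 lower (Eif2d, Eif2ak4 and Eef1b2), beside 5.03% and 9.79% of those genes. In the plot of CPM against own total all members move down, which the lowering of every protein-coding gene sets in advance.

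**Figure D1:**
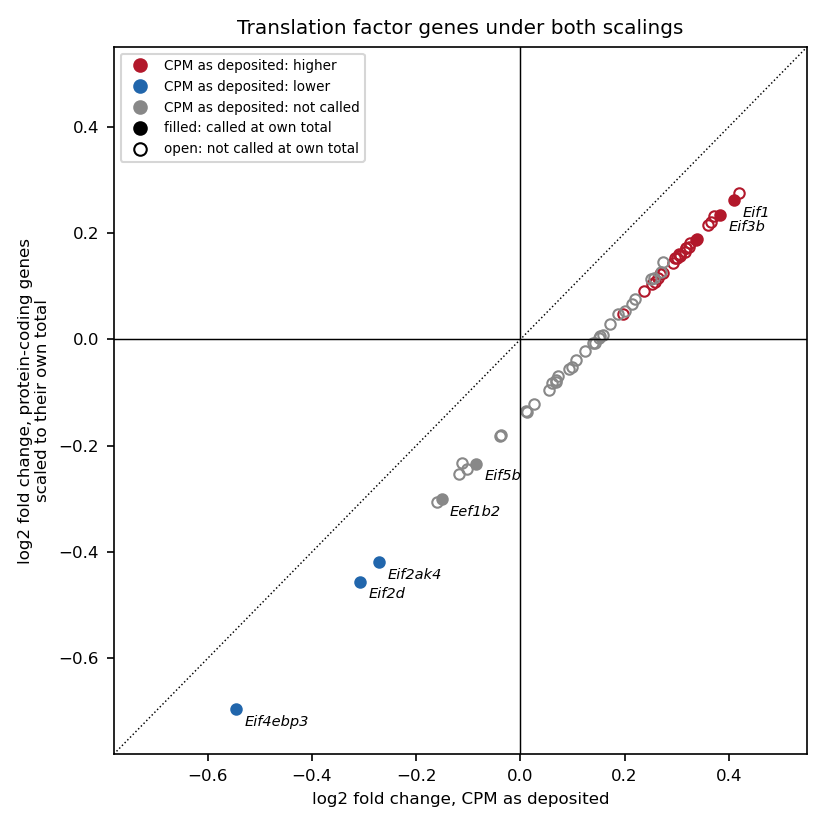
Each point is a translation factor gene, with its log2 fold change (p53 activator against DMSO) in CPM as deposited on the x axis and with protein-coding genes put on their own total on the y axis. All points lie below the dotted line of equal values, because the own total lowers every protein-coding gene. The filled points are the 9 genes called at their own total, among them Eif1 and Eif3b at the top and Eif2d, Eif2ak4 and Eif4ebp3 at the bottom.

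The size of the changes was bounded closely. For 60 of 64 members the 95% interval lay within a 1.5-fold change either way on the log2(CPM + 1) scale, and it reached 1.5-fold for Eif2s3x, Eif2b1, Eif4ebp1 and Eif4ebp3. The added 1 CPM shrinks changes on that scale. With the bound set instead at a 1.5-fold change in CPM from each gene's DMSO mean, 57 of 64 intervals lay within it, and those of Eif1, Eif4a3l1 and Eef2kmt reached it as well. These intervals, like the calls, lean on a spread that limma took from genes of like level: without that trend no member was called (0 higher and 0 lower, with 23 and 3 at an unadjusted p under 0.05), beside 302 genes higher and 1973 lower. edgeR's quasi-likelihood test on whole reads recovered from the CPM called 21 members higher and 3 lower, beside 10.6% and 16.1% of its genes, and DESeq2 called 16 and 0. Leaving out each library in turn left between 12 and 24 members called higher and between 0 and 3 lower, and only Eif1, Eif1ax, Eif3b and Eef1a2 were called in all 4 of those fits.

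**Figure D2:**
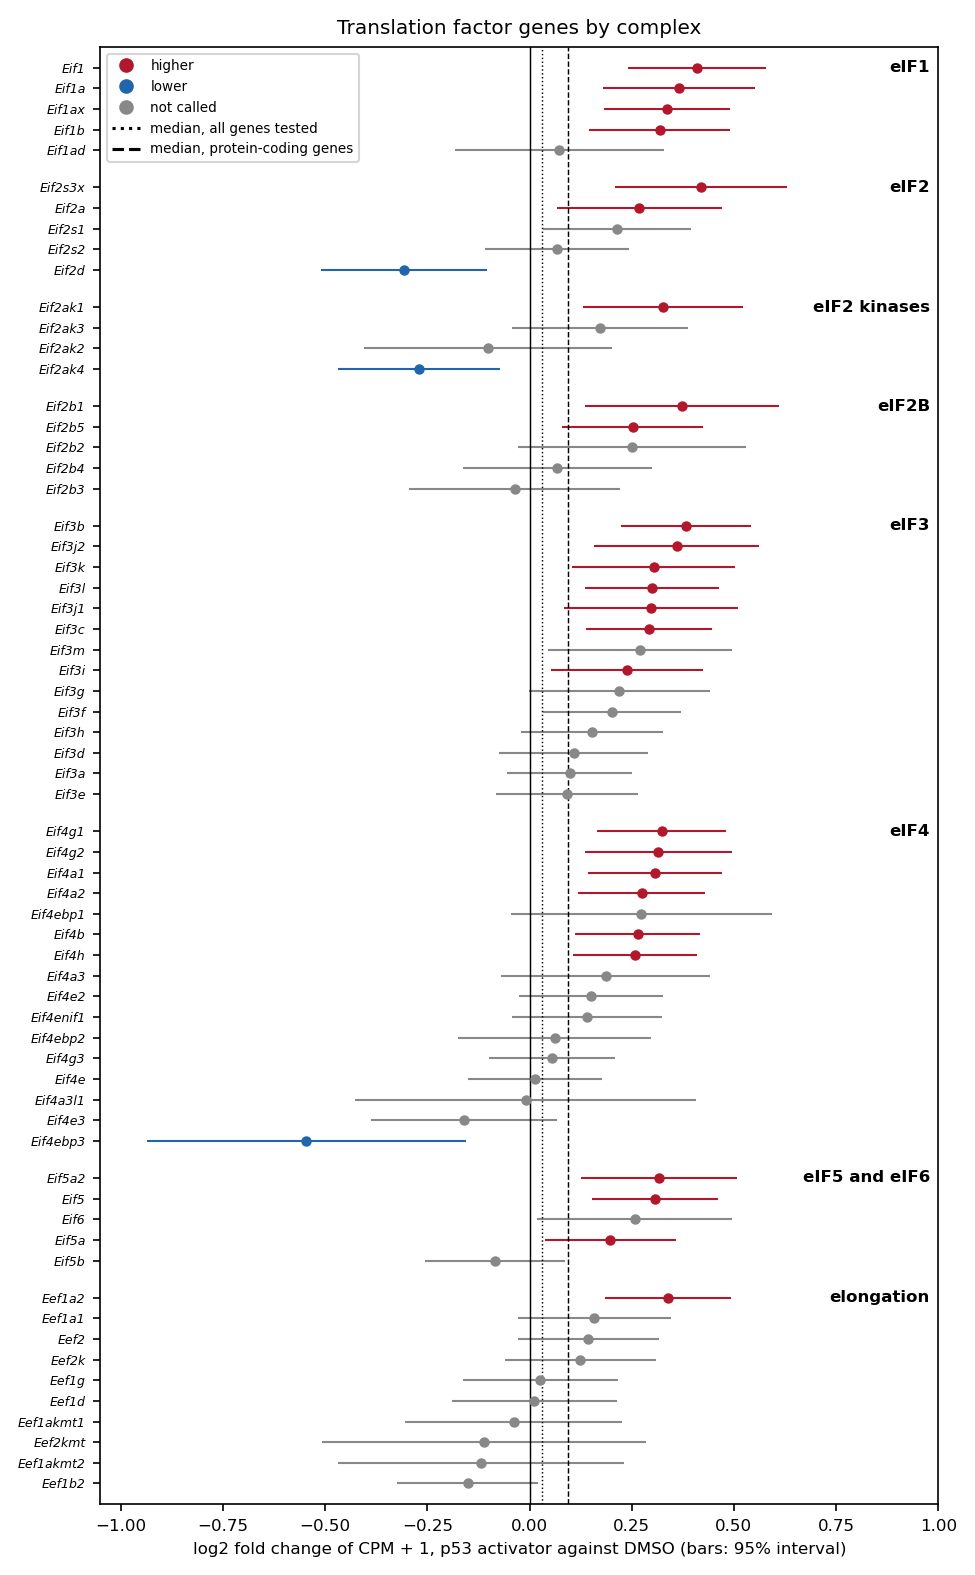
Log2 fold change of CPM + 1, p53 activator against DMSO (2 libraries each), for the 64 translation factor genes tested, by complex, with limma's 95% intervals as bars and calls in colour. All 14 eIF3 genes sit right of 0 in CPM (Eif3a, Eif3d and Eif3e pass to the left with protein-coding genes on their own total), whereas the elongation genes other than Eef1a2 carry no call.

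The promoters of 51 members are in RefSeq's table (build GRCm38.p6, matched by symbol, 250 bases before to 50 after the start site), and 22 of these 51 members were called higher and 2 lower. Members are shown here because many of them differed in the same direction in CPM, most of them without a call at their own total. The windows were searched on both strands for 9 motifs that were chosen after the members' values had been seen. The E-box CACGTG, the site of MYC and its relatives, stood in 13 of 51 members' windows (25.5%), against 8.91% of 17492 protein-coding genes and 8.09% of all 27025 genes with a window. Of those 13 members 7 were called higher and 0 lower in CPM, and none of the 7 was called at its own total. The ETS core CCGGAAG stood in 17 of 51 (33.3%), against 12.9% of protein-coding genes, and 7 of the 17 were called higher. The CRE half-site TGACG stood in 24 (47.1% against 26.2%), of which 9 were called higher and 2 lower, so it stood in the windows of both members called lower that have one. CCAAT stood in 17 (33.3% against 42.3%, 9 called higher), TATAAA in 4 (7.84% against 14.8%, 1 called higher) and the YY1 core AAGATGGC in 4 (7.84% against 3.57%, 2 called higher). The NRF1 core (by its name) and the full CRE TGACGTCA, which contains the half-site, stood in 1 window each (1.96% each, against 1.47% and 2.54%). The p53 consensus, by its name, had no match in 51 windows, against 0.0572% of protein-coding genes. A match is a string of letters and not a bound site, and its absence from a window says nothing of p53. A gene was counted if any of its windows held the motif. The genes compared were not matched to the members for expression or base content, so whether an excess is particular to translation factors was not tested. The windows printed are examples and do not show how often motif and call go together. The E-box windows below, with the motif in capitals, belong to 5 members called higher in CPM (Eif1b, Eif3k, Eif4a1, Eif4g1 and Eif4h) and to Eif4e and Eef2, which were not called. They read 5′ to 3′ along the gene's strand and come from chr9:120492557-120492612 (+), chr7:28981902-28981957 (-), chr11:69672582-69672637 (-), chr16:20672648-20672703 (+), chr5:134639475-134639530 (-), chr3:138527179-138527234 (+) and chr10:81176563-81176618 (+), in the same order.
Eif1b: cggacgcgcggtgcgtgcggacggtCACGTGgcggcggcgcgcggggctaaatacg
Eif3k: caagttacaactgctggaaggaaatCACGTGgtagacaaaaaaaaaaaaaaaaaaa
Eif4a1: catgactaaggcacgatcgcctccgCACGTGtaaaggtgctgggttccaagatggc
Eif4g1: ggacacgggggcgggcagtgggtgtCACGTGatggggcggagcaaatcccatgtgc
Eif4h: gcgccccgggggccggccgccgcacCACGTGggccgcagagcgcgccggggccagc
Eif4e: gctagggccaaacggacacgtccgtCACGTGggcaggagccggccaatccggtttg
Eef2: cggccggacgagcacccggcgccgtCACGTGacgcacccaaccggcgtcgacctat

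The capitals began between 24 bases (Eif1b) and 189 bases (Eif4a1) before the start site in these windows. The ETS cores shown next are examples too, and of their members only Eif1ax was called at its own total. ETS cores, in capitals again, are shown for 3 members called higher in CPM (Eif1ax, Eif3c and Eif3l) and for Eif3d, which was not called. Their places are chrX:159371941-159371997 (+), chr7:126566369-126566425 (-), chr15:79075163-79075219 (+) and chr15:77970863-77970919 (-).
Eif1ax: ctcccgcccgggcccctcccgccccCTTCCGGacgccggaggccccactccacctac
Eif3c: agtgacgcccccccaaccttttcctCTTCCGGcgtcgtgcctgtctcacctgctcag
Eif3l: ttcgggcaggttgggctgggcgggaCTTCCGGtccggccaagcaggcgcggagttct
Eif3d: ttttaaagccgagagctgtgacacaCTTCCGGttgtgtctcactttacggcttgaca

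These 4 cores are in the reverse form CTTCCGG, between 34 and 212 bases before the start site.

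Of the eIF1 genes 4 of 5 rose in CPM, with a median log2 fold change of 0.34. The eIF1 and eIF1A proteins keep the small subunit scanning until a start codon is paired. Eif1, which guards start codon choice, measured 58.2 and 54.3 CPM in the DMSO libraries and 80.6 and 69.8 CPM with the activator. Its groups were well apart, and its log2 fold change was 0.41 ± 0.08 (SE, 2 libraries a group, limma adjusted p = 7.59e-05). Eif1ax, the X-linked gene of eIF1A, had 206 and 204 CPM and then 274 and 246 CPM (0.34 ± 0.08, limma adjusted p = 0.000358). Both remained called with protein-coding genes on their own total, at 0.26 and 0.19, but after cyclic loess Eif1ax was not (0.14, limma adjusted p = 0.141). Eif1a, its autosomal copy, (0.37, limma adjusted p = 0.00135) and Eif1b, a close relative of Eif1, (0.32, limma adjusted p = 0.00266) rose in CPM, but at their own total they stood at 0.22 and 0.17 with no call, and after cyclic loess Eif1a was called (0.25, limma adjusted p = 0.0467). Without DMSO 1 the call of Eif1b was lost (0.29), and without DMSO 2 that of Eif1a (0.28). The fifth gene, Eif1ad, with an eIF1A-like domain, overlapped between groups at 13.2 and 15.5 and 14.2 and 16.1 CPM. Per kilobase of merged exon the DMSO means ran from 5.62 CPM for Eif1ad to 41.7 CPM for Eif1b. A sequence limit applies to Eif1: 21.4% of its 50-base words also occur in transcripts of other genes.

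Of the 5 eIF2 genes 2 rose and 1 fell in CPM, and of the genes for its own subunits 1 of 3 was called. These subunits are encoded by Eif2s1 (alpha, the one that stress kinases phosphorylate), Eif2s2 (beta) and Eif2s3x (gamma, which binds GTP and the initiator tRNA). Eif2s1 measured 42.5 and 42.6 CPM in DMSO and 53.4 and 45.8 CPM with the activator, with groups apart by a few CPM and no call (0.21 ± 0.09, limma adjusted p = 0.0583). Eif2s2 was at 49.99 and 46.1 CPM and 52.1 and 48.7 CPM, overlapping (0.07 ± 0.09, limma adjusted p = 0.590). Eif2s3x was at 23.1 and 22.1 CPM and 33.4 and 28.0 CPM, the largest rise of any member (0.42 ± 0.11, limma adjusted p = 0.00114). Its call was lost without activator 1 (0.30) and with protein-coding genes on their own total (0.28, limma adjusted p = 0.0581). Of its 50-base words 35.4% are shared with other transcripts, most of them of Gm2223. For Eif2s2 the share is 21.9%.

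The gamma subunit has a second gene on the Y chromosome, Eif2s3y, which the rule leaves out. It measured 65.8 and 61.3 CPM in DMSO and 49.7 and 48.8 CPM with the activator, lower by every pairing of libraries (log2 fold change -0.36 ± 0.09, limma adjusted p = 0.000592). In CPM the X-linked gene was thus called higher and the Y-linked gene lower. Their sum was 88.9 and 83.4 CPM in DMSO and 83.1 and 76.8 CPM with the activator, with activator 1 just below the lower DMSO sum and activator 2 further below it. The share of cells from male and female embryos in each culture is not given in the labels, and its part in these values was not tested.

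Outside the heterotrimer, Eif2a, an alternative carrier of initiator tRNA, rose from 29.3 and 25.2 to 34.8 and 31.1 CPM (0.27, limma adjusted p = 0.0331), a call lost without DMSO 2 (0.16), without activator 1 (0.19), in edgeR (adjusted p = 0.0661) and at its own total (0.12). Eif2d, which can place tRNA on the ribosome and helps to recycle it, fell from 31.6 and 30.8 CPM to 26.2 and 23.9 CPM. No activator library reached the DMSO libraries, and the log2 fold change was -0.31 ± 0.10 (limma adjusted p = 0.0148), or -0.46 with protein-coding genes on their own total. The call was lost without DMSO 1 (-0.29), without DMSO 2 (-0.33) or without activator 2 (-0.24).

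Of the 4 kinases of eIF2, each tuned to its own stress, 1 rose and 1 fell in CPM. Eif2ak1 (HRI, the heme-sensing kinase) had 28.0 and 27.9 CPM in DMSO and 36.0 and 34.6 CPM with the activator, well apart (0.33 ± 0.10, limma adjusted p = 0.00694). Eif2ak4 (GCN2, which senses uncharged tRNA) was lower, with 33.8 and 35.3 CPM and 30.0 and 27.0 CPM (-0.27 ± 0.10, limma adjusted p = 0.0272), and -0.42 at its own total. The ratio of Eif2ak4 to Eif2ak1 within a library was 1.21 and 1.27 in DMSO and 0.834 and 0.780 with the activator. Eif2ak3 (PERK, of the endoplasmic reticulum) was at 21.0 and 23.6 CPM and 24.1 and 26.3 CPM (0.17 ± 0.11, limma adjusted p = 0.224). Eif2ak2 (PKR, which binds double-stranded RNA) was at 11.7 and 8.75 CPM and 11.3 and 7.73 CPM (-0.10 ± 0.15, limma adjusted p = 0.648). Neither of these last 2 was called, and Eif2ak2 differed more between libraries of a group than between groups. Eif2ak1 lost its call without DMSO 1 (0.33), without activator 1 (0.30) and at its own total (0.18), and Eif2ak4 without DMSO 1 (-0.30), DMSO 2 (-0.24) or activator 2 (-0.20).

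eIF2B is a decamer with a pair of each of 5 subunits, whose genes are mutated in vanishing white matter disease, and 2 of the 5 genes rose in CPM. Eif2b1, the alpha subunit that takes part in sensing phosphorylated eIF2, measured 15.6 and 15.2 CPM and then 20.8 and 19.7 CPM (0.37 ± 0.12, limma adjusted p = 0.0110). Eif2b5, the catalytic epsilon subunit and the most abundant per kilobase (18.02 CPM in DMSO), measured 45.7 and 47.8 CPM and 55.5 and 56.2 CPM (0.25 ± 0.09, limma adjusted p = 0.0189). In both, the activator libraries were above the DMSO libraries and close to each other. The other subunits were not called: Eif2b2 (beta) at 0.25, Eif2b4 (delta) at 0.07 and Eif2b3 (gamma) at -0.04. Both calls were lost in fits that left out a library, in which the estimates stayed near 0.37 and 0.25. Whether a lost call came from that library or from the smaller fit was not tested. Eif2b5 lost its call without any 1 library (0.22 to 0.28) and in edgeR (adjusted p = 0.0534), Eif2b1 without DMSO 1 (0.39), DMSO 2 (0.36) or activator 1 (0.34), and neither was called at its own total (0.23 and 0.10).

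eIF3, the largest initiation factor, binds the small subunit and holds mRNA and other factors on it. In CPM all 14 of its genes were above 0, 7 of them called, with a median of 0.25. At their own total Eif3a (-0.05), Eif3d (-0.04) and Eif3e (-0.06) turned negative, and 1 gene was called. That gene was Eif3b, a core subunit, with 73.6 and 77.5 CPM in DMSO and 96.4 and 101 CPM with the activator. Its groups were far apart beside their own spread (0.38 ± 0.08, limma adjusted p = 9.13e-05), and at its own total it stood at 0.23 (limma adjusted p = 0.0208).

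Of the other core subunits Eif3c was called in CPM and Eif3a was not. Eif3c, the most abundant per kilobase at 41.8 CPM in DMSO, had 148 and 145 CPM and 169 and 192 CPM (0.29 ± 0.08, limma adjusted p = 0.00197). Eif3a, the scaffold of the complex, had 169 and 177 CPM and 179 and 191 CPM (0.10 ± 0.08, limma adjusted p = 0.340). Its groups were separate but by less than their spread, whereas those of Eif3c were further apart, with activator 2 the highest. The other rises were those of Eif3j2 (0.36), Eif3k (0.30), Eif3l (0.30), Eif3j1 (0.30) and Eif3i (0.24). Eif3j1 and Eif3j2, which encode the loosely held eIF3j that helps to open the subunit, cannot be separated well, as 91.8% of the 50-base words of Eif3j2 occur in other transcripts, above all those of Eif3j1. Not called were Eif3m (0.27), Eif3g (0.22), Eif3f (0.20), Eif3h (0.15), Eif3d (0.11) and Eif3e (0.09). Leaving out 1 library ended the calls of Eif3i (without DMSO 1, 0.23, DMSO 2, 0.25, or activator 1, 0.18), Eif3j1 (DMSO 2, 0.15, or activator 1, 0.19), Eif3k (DMSO 2, 0.23, or activator 1, 0.29), Eif3l (DMSO 1, 0.27), Eif3j2 (DMSO 2, 0.28) and Eif3c (activator 2, 0.20). edgeR called 5 of the 14, without Eif3i (adjusted p = 0.0779) and Eif3j1 (adjusted p = 0.0578).

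Of the 16 eIF4 genes 6 rose and 1 fell in CPM. Genes of the scaffold, the helicase and its cofactors gave the rises, and none of the 3 cap-binding genes passed the test. Eif4g1, the scaffold that joins cap, helicase and eIF3, had 263 and 289 CPM and 328 and 364 CPM (0.32 ± 0.08, limma adjusted p = 0.000801). Eif4g2 (DAP5), a relative without the part that binds eIF4E, was the most abundant initiation factor, at 91.1 CPM per kilobase, with 797 and 809 CPM and 1024 and 975 CPM (0.32 ± 0.09, limma adjusted p = 0.00443). Eif4g3, the other full-length scaffold, had 168 and 173 CPM and 169 and 186 CPM, with the groups overlapping (0.05 ± 0.08, limma adjusted p = 0.621). The ratio of Eif4g3 to Eif4g1 was 0.639 and 0.599 in DMSO and 0.515 and 0.511 with the activator. That of Eif4g2 to Eif4g1 overlapped, at 3.03 and 2.80 and then 3.12 and 2.68.

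Eif4a1 and Eif4a2 encode the RNA helicase eIF4A, the second being the form of many brain neurons. Eif4a1 had 67.4 and 61.3 CPM and 82.8 and 76.8 CPM (0.31 ± 0.08, limma adjusted p = 0.00242). Eif4a2 had 221 and 208 CPM and 275 and 245 CPM (0.27 ± 0.08, limma adjusted p = 0.00391). They kept a like ratio, 3.28 and 3.38 in DMSO and 3.32 and 3.19 with the activator, though 65.3% of the 50-base words of Eif4a1 are shared, among them with pseudogenes. Eif4a3, which sits in the exon junction complex, had 13.4 and 13.2 CPM and 15.7 and 15.0 CPM (0.19 ± 0.13, limma adjusted p = 0.271). The helicase cofactors Eif4b (0.26, limma adjusted p = 0.00480) and Eif4h (0.26, limma adjusted p = 0.00578) rose. None of these 6 rises in eIF4 was called at its own total, where the values lay between 0.11 for Eif4h and 0.17 for Eif4g1. With a library left out, calls were lost for Eif4g1 (DMSO 1, 0.25, or activator 2, 0.25), Eif4g2 (activator 1, 0.28) and Eif4a1 (DMSO 2, 0.24). The same held for Eif4a2 (DMSO 2, 0.23, or activator 1, 0.19), Eif4b (DMSO 1, 0.25) and Eif4h (DMSO 1, 0.24, or activator 1, 0.24).

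Eif4e, the cap-binding protein, had 77.1 and 69.6 CPM in DMSO and 76.6 and 71.3 CPM with the activator. The libraries of both groups covered the same range, and the interval of the log2 fold change ran from -0.15 to 0.18 (0.01 ± 0.08, limma adjusted p = 0.921), with a negative estimate at its own total (-0.14). Its relatives were not called either: Eif4e2, a repressive cap-binding protein, at 48.5 and 45.6 CPM and 55.5 and 49.2 CPM (0.15 ± 0.09, limma adjusted p = 0.188), and Eif4e3 at 23.4 and 21.1 CPM and 21.9 and 17.9 CPM (-0.16 ± 0.11, limma adjusted p = 0.293). Eif4enif1, which carries eIF4E into the nucleus, stood at 0.14, and the helicase relative Eif4a3l1, with under 2 CPM in every library, at -0.0097.

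The 4E-binding proteins hold eIF4E off the scaffold until mTORC1 phosphorylates them, and 1 of their 3 genes was called. Eif4ebp3 was the member with the largest change: 4.94 and 3.07 CPM in DMSO and 2.68 and 2.09 CPM with the activator, from 72, 46, 51 and 37 reads. All activator values were below the DMSO values, but DMSO 1 stood well above DMSO 2. The log2 fold change was -0.55 ± 0.20 (limma adjusted p = 0.0240), -0.69 at its own total, and -0.48 with no call after cyclic loess (limma adjusted p = 0.0708). Without DMSO 1 it was -0.27, and without activator 2 it was -0.42, neither called, and 65.5% of its 50-base words are shared with AC115631.1. Eif4ebp1 had 6.86 and 6.21 CPM and 8.86 and 7.39 CPM (0.27 ± 0.16, limma adjusted p = 0.188). Eif4ebp2, the main form in brain, had 17.0 and 19.0 CPM and 17.4 and 20.3 CPM (0.06 ± 0.12, limma adjusted p = 0.730). The ratio of Eif4ebp3 to Eif4ebp1 was 0.720 and 0.495 in DMSO and 0.302 and 0.282 with the activator.

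**Figure D3:**
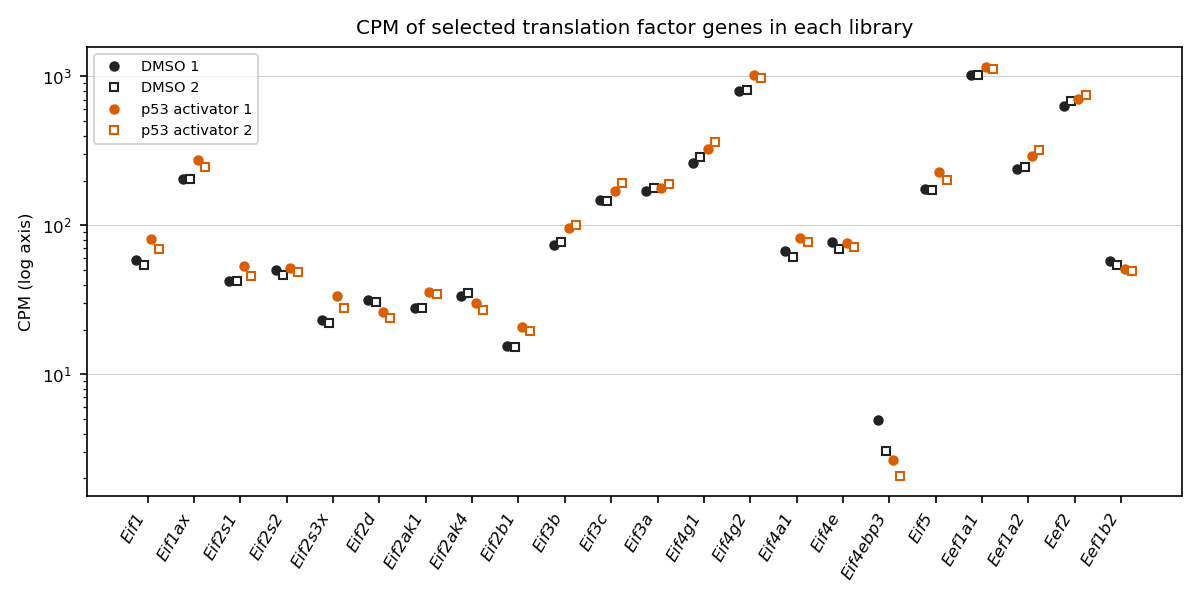
Levels in CPM, on a log axis, of 22 translation factor genes in each of the 4 libraries, DMSO in black and p53 activator in orange, with circles for replicate 1 and squares for replicate 2. The orange points of Eif1, Eif3b, Eif4g1 and Eef1a2 lie above the black ones, those of Eif2d, Eif2ak4 and Eif4ebp3 below them, and those of Eif4e among them.

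Of the eIF5 and eIF6 genes, which are grouped by symbol and not by a shared step, 3 of 5 rose in CPM. None was called higher at its own total. Eif5, which makes eIF2 hydrolyse its GTP at the start codon, had 175 and 172 CPM and 228 and 203 CPM (0.31 ± 0.08, limma adjusted p = 0.00114). Eif5a, whose product carries the amino acid hypusine and eases stalled ribosomes, had 89.5 and 79.0 CPM and 96.1 and 97.0 CPM (0.20 ± 0.08, limma adjusted p = 0.0491). Its rise was the smallest called, and edgeR did not call it (adjusted p = 0.150). Its paralog Eif5a2 had 35.9 and 32.0 CPM and 46.2 and 39.1 CPM (0.32 ± 0.10, limma adjusted p = 0.00673), and the ratio of Eif5a2 to Eif5a overlapped between groups. Eif5b, the GTPase that joins the subunits, was at 56.3 and 56.1 CPM and 51.6 and 54.3 CPM, with no call in CPM (-0.08 ± 0.09, limma adjusted p = 0.478) and a call lower at its own total (-0.23, limma adjusted p = 0.0401). Eif6, which keeps the large subunit free, stood at 0.26 (limma adjusted p = 0.0885). Calls were lost for Eif5 without activator 1 (0.22), for Eif5a2 without DMSO 2 (0.24) or activator 1 (0.20), and for Eif5a without DMSO 2 (0.11), activator 1 (0.20) or activator 2 (0.19).

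Elongation genes include the most abundant members per kilobase, and most were not called: 1 of 10 rose, 0 fell, and the median was 0.02 in CPM. The gene that rose was Eef1a2, the form of eEF1A that neurons and muscle take up as they mature. It had 238 and 246 CPM and 293 and 321 CPM, with the groups apart (0.34 ± 0.08, limma adjusted p = 0.000362), and at its own total it stayed called (0.19, limma adjusted p = 0.0407), although after cyclic loess alignment it did not (0.14). Eef1a1, the form of most cells, had 1018 and 1021 CPM and 1149.5 and 1127 CPM (0.16 ± 0.09, limma adjusted p = 0.192). The ratio of Eef1a2 to Eef1a1 was 0.234 and 0.241 in DMSO and 0.255 and 0.285 with the activator, above in both libraries, and 52.4% of the 50-base words of Eef1a1 are shared, among them with pseudogenes. Per kilobase in DMSO, Eef1a1 stood at 503 CPM, Eef2 at 213 CPM and Eef1a2 at 116 CPM. Eef1a1, Eif4g2 and Eef2 together took 40.5%, 41.5%, 40.6% and 40.8% of the members' reads in DMSO 1, DMSO 2, activator 1 and activator 2, so this concentration was alike in all 4.

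Eef2 had 630.3 and 685 CPM in DMSO and 707 and 746 CPM with the activator, the groups separate but the DMSO libraries wide apart (0.14 ± 0.09, limma adjusted p = 0.199). Eef2k, the kinase that stops eEF2 and is active at synapses, had 37.4 and 37.6 CPM and 41.1 and 40.9 CPM (0.12 ± 0.09, limma adjusted p = 0.314), and its ratio to Eef2 overlapped. The exchange factor of eEF1A is made of the products of Eef1b2, Eef1d and Eef1g. Eef1b2 was at 57.4 and 54.5 CPM and 50.9 and 49.7 CPM, all activator values below the DMSO values, with no call in CPM (-0.15 ± 0.09, limma adjusted p = 0.175) but a call lower at its own total (-0.30, limma adjusted p = 0.00733). Eef1d and Eef1g stood at 0.01 and 0.03 in CPM and at -0.14 and -0.12 at their own total, not called in either. Of the 50-base words of Eef1g 64.3% are shared with other transcripts. The enzymes that methylate the elongation factors were few in reads: Eef1akmt1 (-0.04), Eef1akmt2 (-0.12) and Eef2kmt (-0.11) were not called, and Eef1akmt4, with 7, 7, 14 and 4 reads, was under the limit of 1 CPM in 2 libraries and was not tested.

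Related genes were also set against each other within a library, in 16 ratios of paralogs or of subunits of eIF2. A ratio of CPM does not depend on what else was sequenced, and since it is not corrected for length it is compared only between libraries. It was higher in both activator libraries for 3 pairs, lower for 7 and overlapping for 6. Several pairs share a gene, such as Eif2ak1 or Eif4g1, so these are not separate results. No share over other pairs of genes was computed. With 2 libraries a group the exact permutation test, two-sided, cannot go below p = 0.333, and every adjusted value was at least 0.533, so none passed. Besides the pairs above, Eif2s3x to Eif2s1 was 0.544 and 0.520 in DMSO and 0.624 and 0.611 with the activator, and Eif4e2 to Eif4e was 0.628 and 0.655 and then 0.725 and 0.690. The lower ones included Eif2ak2 to Eif2ak1 (0.416 and 0.314, then 0.313 and 0.223), where DMSO 2 and activator 1 nearly touched, and Eif2s2 to Eif2s1 (1.18 and 1.08, then 0.974 and 1.06).

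**Figure D4:**
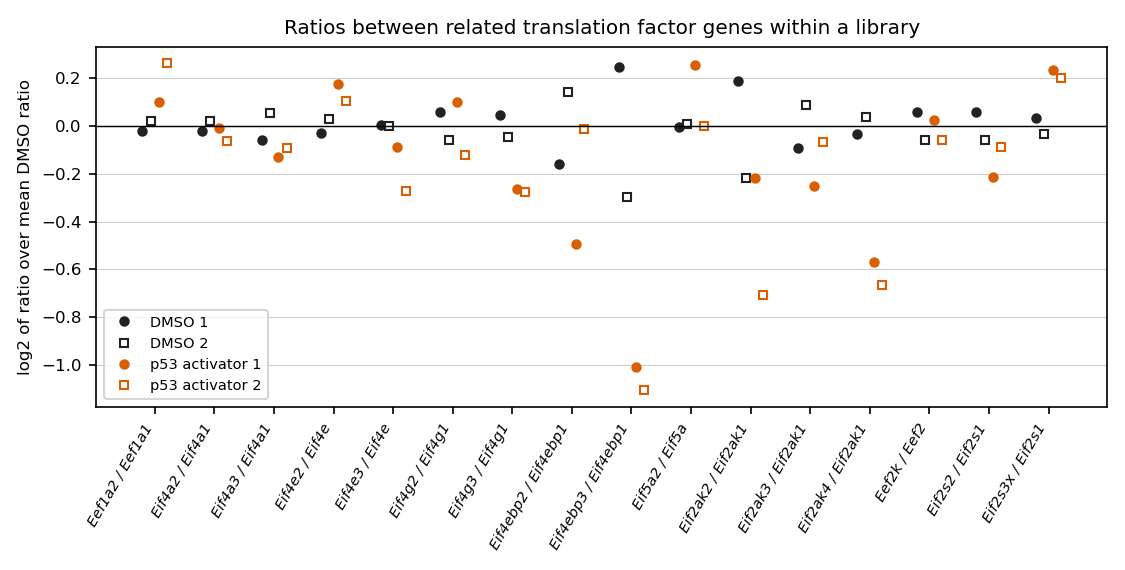
Log2 of the ratio of CPM of 2 related genes in each library, relative to the mean of the DMSO libraries, for 16 pairs. The points of the activator (orange) for Eif4ebp3 to Eif4ebp1, Eif2ak4 to Eif2ak1 and Eif4g3 to Eif4g1 lie below both DMSO points (black), and those for Eef1a2 to Eef1a1 and Eif2s3x to Eif2s1 above them.

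Genes of translation outside the members were read from 4 lists. Of 10 genes of termination, recycling and rescue 3 rose and 0 fell, with a median of 0.18. Etf1, the release factor that reads stop codons, had 91.2 and 91.5 CPM in DMSO and 124 and 118 CPM with the activator (0.40, limma adjusted p = 2.56e-05). Of 6 poly(A)-binding proteins and partners 2 rose and 1 fell (median 0.08), led by Paip2b (0.37, limma adjusted p = 0.00113) and Pabpn1 (-0.34, limma adjusted p = 0.00227). Of 20 regulators of the factors 5 rose and 1 fell (median 0.11): Ppp1r15b, which brings a phosphatase to eIF2, had the smallest p upward (0.40, limma adjusted p = 4.9e-05), and Pdcd4, an inhibitor of eIF4A, was the one that fell (-0.24, limma adjusted p = 0.022). Of 19 genes of the mTORC1 pathway 9 rose and 0 fell (median 0.24), with Ddit4, an inhibitor of mTORC1, the first (0.53, limma adjusted p = 6.44e-05). These counts are in CPM and stand beside 21.2% higher and 7.19% lower of protein-coding genes, or 16.9% and 16.3% of all genes. On the own total of protein-coding genes 10, 6, 19 and 19 genes were tested, in the same order. Of these, 1, 0, 1 and 1 were called higher and 0, 1, 3 and 3 lower, beside 4.37% and 13.1% of protein-coding genes. The medians there were 0.04, -0.07, -0.08 and 0.10, so the median of the poly(A)-binding list and that of the regulators changed sign.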

How the data were processed

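The authors deposited 1 table of CPM per library for 18854 genes. No header or label names the unit, which was read from the values: every value (100%, within 0.01 reads) is a whole multiple of what 1 read is worth, so whole reads could be recovered, and 0.133% to 0.208% of reads fell outside the listed genes. Per the submitters' processing notes, TopHat2, Cufflinks 2.0.0 and the build mm9 were used, with no role given, and for read counting, annotation and strand the entry is: not given in the sources used here.

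A gene was tested if 2 or more libraries held 1 CPM or more (16654, with 2200 removed). limma 3.58.1 in R 4.3.3 fitted log2(CPM + 1), with a pseudocount of 1 that understates changes of low genes. A trend of the spread was used (98.0 prior and 2 residual degrees of freedom, median SE 0.13). On simulated data, with genes of all levels, the test called 20.2% of 1.25-fold and 61.6% of 1.5-fold changes, with 4.52% false calls. Few genes were changed in the simulation, up or down at random, and the share of protein-coding reads was not shifted. The real data differ in both, so these rates need not hold for them, and the false calls leave out any effect of scaling. A gene without a call may still have changed by 1.25-fold or 1.5-fold. edgeR 4.0.16 (1869 genes higher and 2846 lower of 17710) and DESeq2 1.42.0 on recovered reads, other scalings, filters and pseudocounts, and leaving out each library were alternatives. Protein-coding genes were also put on their own total or through cyclic loess. Gene classes and exon lengths came from GENCODE vM21 (GRCm38), matched by symbol, and shared 50-base words from its transcripts. More than 20% of these words were shared for 14 of 64 members, not all of them marked above. The members and all lists (termination, poly(A)-binding, regulators, mTORC1, cell type markers) were chosen with earlier results of these data known. Every member may be named. Those given in full are the subunits of eIF2, the largest called rise and fall and the most abundant gene of each complex, and sets of paralogs.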

Additional observations from a re-analysis of the deposited data

How the results depend on the processing

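Counts of members called follow in the order eIF1, eIF2, eIF2 kinases, eIF2B, eIF3, eIF4, eIF5 with eIF6, and elongation. In CPM as deposited they were 4, 2, 1, 2, 7, 6, 3 and 1 higher (26 in all, of 2811 genes) and 0, 1, 1, 0, 0, 1, 0 and 0 lower (3 in all, of 2721 genes). Other pseudocounts and a robust spread left these within 1.5 times. With protein-coding genes on their own total they were 2, 0, 0, 0, 1, 0, 0 and 1 higher (4 in all, of 570 genes) and 0, 1, 1, 0, 0, 1, 1 and 1 lower (5 in all, of 1707 genes), with a members' median of 0.054. After cyclic loess they were 2, 1, 0, 0, 1, 0, 0 and 0 higher (4 in all, of 642) and 0, 1, 1, 0, 0, 0, 0 and 1 lower (3 in all, of 1250), with a median of 0.081, beside 5.03% and 9.79% of protein-coding genes. After quantile normalization they were 4, 1, 1, 1, 3, 2, 0 and 1 higher (13 in all, of 1632) and 0, 1, 1, 0, 0, 0, 0 and 1 lower (3 in all, of 1925), with a median of 0.14. DESeq2 gave 4, 1, 0, 0, 3, 6, 1 and 1 higher (16 in all, of 1307) and 0 lower in every complex (of 1508 genes), with 22 and 3 members at an unadjusted p under 0.05. edgeR gave 1 gene of eIF2 and 1 of eIF2B, and 1869 genes higher. With no filter eIF2 had 1 gene higher, and 1 member was lower, with 0 in the eIF2 kinases and 0 in eIF4. With at least 5 CPM, eIF4 had 0 genes lower, of 1776 lower genes. Without a trend of the spread 0 members were called in any complex and either direction, beside 302 genes higher and 1973 lower. The cause of these differences was not tested.

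Leaving out 1 library at a time, in which the lone sample of a group is taken to vary like the other group, gave 12 to 24 members higher and 0 to 3 lower, and 1138 to 2122 genes higher and 1445 to 2468 lower. By complex, eIF1 had 3 to 4 higher, eIF2 0 to 3 higher and 0 to 1 lower, the eIF2 kinases 0 to 1 each way, eIF2B 0 to 1 higher, eIF3 3 to 7, eIF4 3 to 5 higher and 0 to 1 lower, eIF5 with eIF6 0 to 3, and elongation 1.

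No called member changed sign under any alternative run, but uncalled ones did. Those that did had smaller estimates in CPM than any called member, so the contrast is in part built in. Quantile normalization gave Eef1akmt1 0.023, Eef1akmt2 0.054, Eef1d -0.028, Eef1g -0.031, Eef2 -0.055, Eef2kmt 0.14, Eif2b3 0.0043, Eif2s2 -0.019, Eif3a -0.066, Eif4a3l1 0.23, Eif4e -0.090 and Eif4g3 -0.11. The own total of protein-coding genes gave Eef1d -0.14, Eef1g -0.12, Eef2 -0.0063, Eef2k -0.023, Eif1ad -0.069, Eif2b4 -0.076, Eif2s2 -0.080, Eif3a -0.051, Eif3d -0.040, Eif3e -0.056, Eif4e -0.14, Eif4ebp2 -0.082, Eif4enif1 -0.0073 and Eif4g3 -0.095. Cyclic loess gave Eef1a1 -0.078, Eef1d -0.089, Eef1g -0.087, Eef2 -0.080, Eif2b4 -0.0078, Eif2s2 -0.061, Eif3a -0.085, Eif3d -0.014, Eif3e -0.041, Eif4e -0.13, Eif4ebp2 -0.010 and Eif4g3 -0.13. edgeR gave Eef1d -0.024, Eef1g -0.0064 and Eif4e -0.022. Fits that left out 1 library at a time ranged for Eef1akmt1 from -0.11 to 0.028, Eef1akmt2 from -0.28 to 0.043, Eef1d from -0.040 to 0.062, Eef1g from -0.052 to 0.10, Eef2kmt from -0.24 to 0.014, Eif1ad from -0.033 to 0.18, Eif2ak2 from -0.35 to 0.14, Eif2b3 from -0.12 to 0.051, Eif2b4 from -0.035 to 0.17, Eif4a3l1 from -0.090 to 0.071, Eif4e from -0.060 to 0.086, Eif4ebp2 from -0.042 to 0.17 and Eif4g3 from -0.014 to 0.12.

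Groups share replicate numbers, but no label says that a number pairs samples, and with 2 libraries a group it cannot be read from the data (r = 0.12 between deviations of same-numbered libraries over 16654 genes). With the replicate number as a block, 30 members were called higher and 3 lower, of 3705 genes higher and 3132 lower, and eIF1 to elongation had 4, 3, 1, 2, 9, 6, 4 and 1 higher. Depth limits the genes with few reads, such as Eif4ebp3, Eef2kmt and Eif4a3l1, and gave no test of Eef1akmt4.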

Other observations

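Eef1e1 begins with the letters of an elongation factor and encodes a part of the multi-synthetase complex, so it is not a member. It measured 15.4 and 15.0 CPM in DMSO and 20.9 and 19.3 CPM with the activator, with the groups apart (log2 fold change 0.38, limma adjusted p = 0.00971).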
